A study of Homo sapiens with 6 samples.

Results

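Interferon response genes are the transcripts that cells make when an interferon has reached its receptor, or when RNA or DNA sensors inside the cell have been engaged. A set of 45 such genes was chosen by symbol. Of these, 44 had at least 1 probe set whose annotation names that gene alone, out of 19775 genes so represented on the array, and the brightest probe set of each gene over all arrays stood for it. STAT2 was not analysed here. The cells were H1299, an established line from a human lung carcinoma, without p53. Cells of all groups were infected with lentivirus and harvested after 72 hours, so that the controls carried a virus and an shRNA as well. The shRNA was RBP2 KD1 or RBP2 KD2, both against the demethylase RBP2 (now KDM5A), or a scramble shRNA, and each of these 3 groups had 2 arrays. KD1, KD2 and scramble name these groups from here on. No uninfected cells are among the 6 samples, so the response of the cells to the virus itself cannot be told apart from their baseline. Whether the 2 arrays of a group came from separate cultures is not stated in the labels. The p-values therefore rest on array-to-array spread that could be technical.

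Interferons of type I bind the receptor chains IFNAR1 and IFNAR2, and the kinases JAK1 and TYK2 then start a signal that ends with a complex containing IRF9 on the interferon-stimulated response element (ISRE) of the target genes. The targets make proteins that bind viral RNA, block membrane fusion, cut or modify RNA, attach the ubiquitin-like protein ISG15 to other proteins, or feed back on the pathway itself. Many of them are also driven directly by IRF1 or IRF3, and epithelial cancer lines often transcribe some of them without added interferon.

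Promoter sequences of these genes were searched for 2 motifs of the pathway. The genes were chosen by name as known interferon targets, so a high share with an ISRE could follow from that choice. RefSeq windows of build GRCh38.p14, from 250 bases before to 50 bases after a start site, were matched to 36 of the 45 genes. The ISRE core, written GAAA, then any 2 bases, then GAAA, was searched on both strands and lay in a window of 25 of the 36 (69.4%), against 1195 of 27305 genes (4.38%). The symmetric STAT motif TTCNNNGAA lay in 10 of the 36 (27.8%), against 2560 genes (9.38%). A match describes letters and not a bound site, and some genes have several windows. Windows of 7 genes that carry the main results are printed, each read 5′ to 3′ on the gene's own strand, with ISRE cores of either strand in capitals. The first 4 belong to genes whose 4 knockdown arrays all lay above scramble, and the last 3 to genes that differed between KD1 and KD2.
IFIT1 (chr10:89392373-89392672, plus strand): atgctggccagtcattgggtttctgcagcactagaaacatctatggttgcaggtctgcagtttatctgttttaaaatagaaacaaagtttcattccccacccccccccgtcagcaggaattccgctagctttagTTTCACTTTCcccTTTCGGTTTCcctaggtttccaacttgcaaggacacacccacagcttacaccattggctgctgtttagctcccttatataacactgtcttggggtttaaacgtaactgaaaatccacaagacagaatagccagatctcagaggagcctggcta
IFIT3 (chr10:89332279-89332578, plus strand): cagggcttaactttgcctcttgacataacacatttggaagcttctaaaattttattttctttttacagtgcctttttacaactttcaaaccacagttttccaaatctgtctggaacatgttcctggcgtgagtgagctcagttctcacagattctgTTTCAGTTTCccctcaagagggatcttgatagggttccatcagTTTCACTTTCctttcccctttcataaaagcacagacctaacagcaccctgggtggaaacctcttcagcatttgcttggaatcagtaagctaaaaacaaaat
ISG15 (chr1:1013247-1013546, plus strand): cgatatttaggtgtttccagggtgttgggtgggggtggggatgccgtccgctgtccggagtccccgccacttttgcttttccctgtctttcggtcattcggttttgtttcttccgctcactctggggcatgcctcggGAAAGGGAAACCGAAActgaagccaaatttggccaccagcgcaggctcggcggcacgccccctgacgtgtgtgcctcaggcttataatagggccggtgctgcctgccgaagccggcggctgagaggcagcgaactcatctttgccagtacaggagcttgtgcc
LGALS3BP (chr17:78979874-78980173, minus strand): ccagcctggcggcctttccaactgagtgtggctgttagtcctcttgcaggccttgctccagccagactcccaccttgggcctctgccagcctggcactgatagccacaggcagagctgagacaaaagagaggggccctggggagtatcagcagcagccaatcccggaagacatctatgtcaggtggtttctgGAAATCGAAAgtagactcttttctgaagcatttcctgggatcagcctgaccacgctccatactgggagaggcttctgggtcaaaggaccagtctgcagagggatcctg
ISG20 (chr15:88638766-88639065, plus strand): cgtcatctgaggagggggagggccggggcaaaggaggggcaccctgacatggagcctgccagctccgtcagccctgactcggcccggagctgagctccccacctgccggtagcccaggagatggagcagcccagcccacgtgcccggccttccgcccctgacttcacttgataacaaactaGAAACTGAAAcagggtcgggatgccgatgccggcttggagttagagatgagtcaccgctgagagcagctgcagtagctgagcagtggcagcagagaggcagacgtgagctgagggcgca
DTX3L (chr3:122564088-122564387, plus strand): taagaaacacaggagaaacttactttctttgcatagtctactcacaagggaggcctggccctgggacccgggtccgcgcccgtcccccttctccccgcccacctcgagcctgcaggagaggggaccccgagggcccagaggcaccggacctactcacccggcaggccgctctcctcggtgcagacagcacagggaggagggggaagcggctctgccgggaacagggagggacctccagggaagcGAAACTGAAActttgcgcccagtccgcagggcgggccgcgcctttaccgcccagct
PARP14 (chr3:122680589-122680888, plus strand): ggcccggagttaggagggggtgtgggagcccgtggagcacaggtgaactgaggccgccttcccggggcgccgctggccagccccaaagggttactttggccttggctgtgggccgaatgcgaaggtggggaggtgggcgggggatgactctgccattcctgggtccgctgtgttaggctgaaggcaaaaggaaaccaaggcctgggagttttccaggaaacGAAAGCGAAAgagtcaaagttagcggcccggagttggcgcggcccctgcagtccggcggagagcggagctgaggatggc
In the ISG15 window 2 overlapping cores form one run of capitals, and IFIT1 and IFIT3 hold 2 separate cores each. DTX3L and PARP9 start from opposite strands, their windows overlap by 137 bases, and the core printed for DTX3L is also the core of PARP9. Of the 14 genes called in at least 1 comparison of the arrays, 13 had a window and 9 of these held a core (69.2%). Of the 12 genes with a window that were too dim to test, 8 held one (66.7%). The windows of HERC6, IFI35, SP110 and UBE2L6 held none.

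Only part of the response was measurable in these cells. On the deposited log2 scale the lowest value was 2.24, a floor at which the authors' processing leaves dim probe sets. Of all 19775 genes, 5194 stood at it on all 6 arrays. So did 12 of the 44 members, a share near that of all genes. The 12 were the antiviral GTPases MX1 and MX2, the synthetases OAS1 and OAS2, the RNA sensor DHX58, viperin (RSAD2) with its neighbour CMPK2, tetherin (BST2), TRIM22, IFI27, IFI44 and IFI44L. OASL, SAMD9L and XAF1 never exceeded 2.26, and TRIM21 ranged from 3.81 to 4.30. IFITM1 was at the floor on scramble replicate 1 and between 3.63 and 4.26 on the other 5 arrays. A change that stays under the detection of these probe sets cannot be seen. The remaining 27 genes had a mean of at least 4 over the 6 arrays and were tested among 10526 genes. LGALS3BP was the 1 tested member whose scramble mean was below 4, so it passed that filter through its knockdown arrays.

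**Figure D1:**
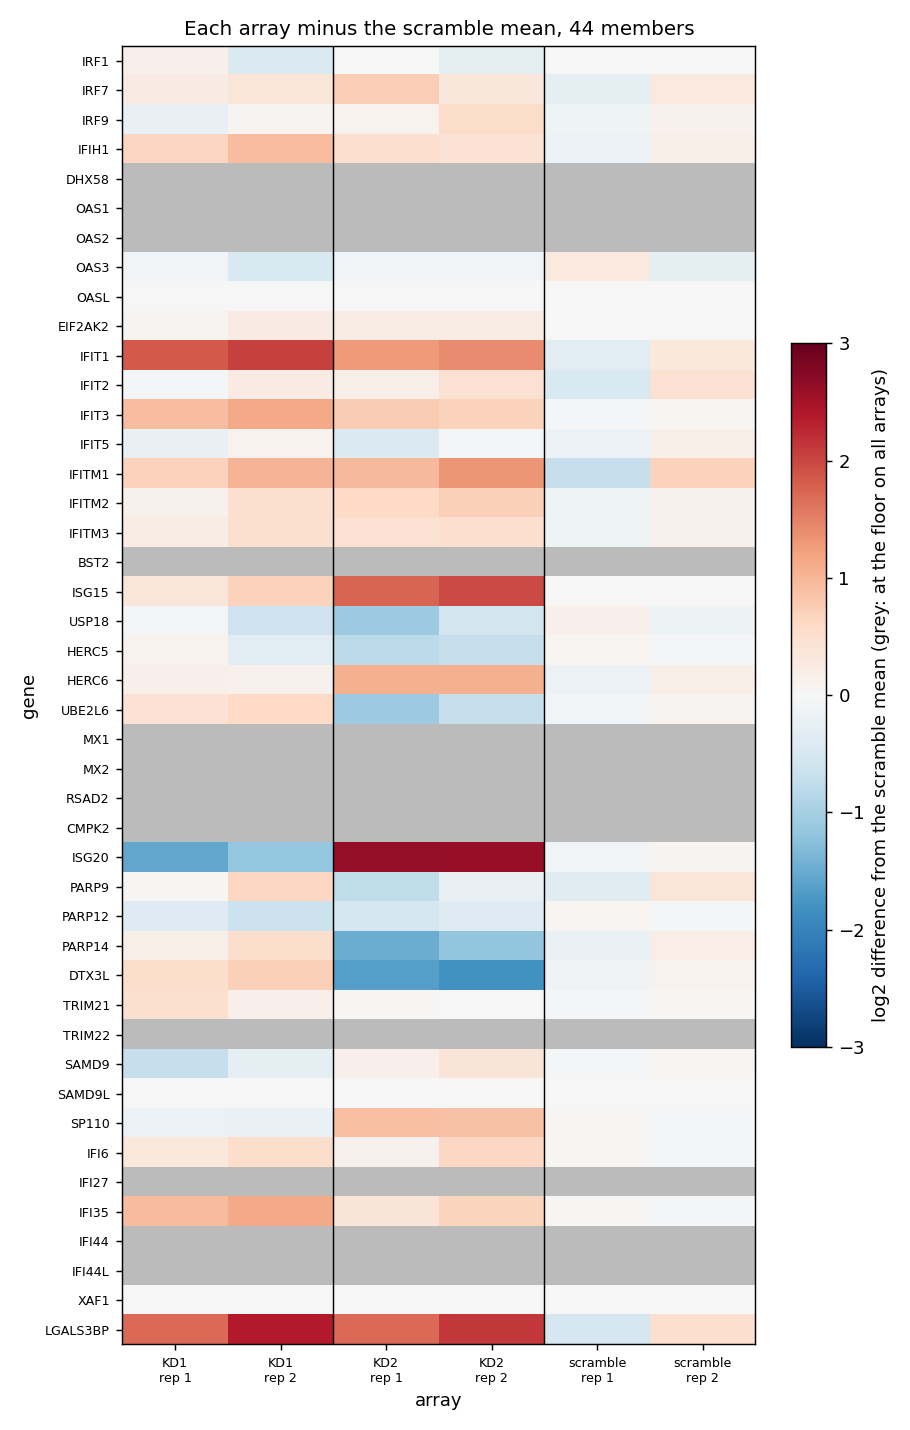
Deposited log2 value of each array minus the mean of the 2 scramble arrays, for the 44 genes with a probe set (rows, ordered by role) and the 6 arrays (columns). Grey rows are the 12 genes at the floor of 2.24 on all arrays, and the colour scale compares arrays within a row only. IFIT1, IFIT3 and LGALS3BP are red on all 4 knockdown arrays, while ISG20 is blue in KD1 and red in KD2, and DTX3L and PARP14 are blue on both KD2 arrays.

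The targeted gene was lower on all 4 knockdown arrays: KDM5A read 7.42 and 7.27 in KD1 and 6.66 and 6.72 in KD2, against 9.35 and 9.42 in scramble. The array medians over tested genes lay between 8.49 and 8.56. Of 4 leukocyte markers, PTPRC, CD3E and CD14 were at the floor on all arrays. The fourth, ITGAM, read 4.97 and 4.02 in KD1 and 6.03 and 4.69 in KD2, against 4.27 and 3.17 in scramble, and passed against scramble with the block only. Its scramble mean was below 4, so ITGAM passed the filter on dim genes through its knockdown arrays. The 4 endothelial markers were too dim to test. Of 5 epithelial markers KRT8 and KRT18 were bright on every array, while KRT19 and CDH1 were at the floor and EPCAM read 2.30. KRT8 was itself called higher with KD1, by 0.74 (adjusted p = 0.035).

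Interferon response genes were called in both directions. IFIT1, IFIT3 and LGALS3BP were higher with both shRNAs, ISG20 was lower with KD1 and higher with KD2, and DTX3L and PARP14 were lower with KD2. Each shRNA was compared with scramble by limma over all 10526 genes, and calls were made at an adjusted p (Benjamini-Hochberg) below 0.05. In bulk RNA, fewer cells carrying a transcript and less of it per cell cannot be told apart. With KD1, 4 of the 27 tested members were called higher (IFIT1, IFIT3, IFI35 and LGALS3BP) and 1 was called lower (ISG20), where 3.62% and 7.90% of all tested genes were called. With KD2, 8 were called higher (IFIT1, IFIT3, IFITM2, ISG15, HERC6, ISG20, SP110 and LGALS3BP) and 4 lower (HERC5, UBE2L6, PARP14 and DTX3L), where 16.7% and 14.4% of all tested genes were called. Averaging the shRNAs, 6 were called higher (IFIT1, IFIT3, ISG15, HERC6, IFI35 and LGALS3BP) and 1 lower (DTX3L), against a background of 5.61% and 6.92%. In the test of KD1 minus KD2, 5 were higher in KD1 (background 17.8%) and 5 lower (23.3%). Called in at least 1 of these comparisons were 14 of the 27, where 49.2% of all tested genes were, so that share is near the background. These counts are a description of members chosen with earlier results of these data known. The median log2 difference over the 27 members was 0.31 with KD1 and 0.33 with KD2, and over all tested genes it was 0.00 and 0.08. The members' KD1 median was 0.029 without scramble replicate 1 and 0.15 without KD1 replicate 2, and their KD2 median was 0.18 without KD2 replicate 2. With a gene's probe sets averaged both medians were 0.18, and over all 44 genes, dim ones included, both were 0.0.

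Replicate numbers paired the arrays in these data, so counts with the number as a block are given too. With the block, 9 members were called higher and 3 lower with KD1 (background 12.8% and 16.8%), 12 and 6 with KD2 (28.4% and 22.2%), and 11 and 3 in the mean (17.4% and 17.5%). In the mean the block added IFIH1, IFITM2, IFITM3, ISG20 and SP110 as higher and PARP12 and PARP14 as lower. In KD1 minus KD2 it was 7 higher and 7 lower (25.1% and 32.6%). Counting calls with or without the block, 19 members were called at least once, where the block alone called 71.0% of all genes. Without the block, IFIT1, IFIT3 and LGALS3BP were called higher with KD1 and with KD2 (background 1.65%), and ISG20 was the 1 member called in opposite directions (background 2.39%). All these counts of members called higher against scramble include LGALS3BP, which passed the filter through its knockdown arrays. With the block, IFIH1, ISG15 and IFI35 joined the genes called higher with both shRNAs (background 5.59%), PARP12 was called lower with both (4.20%), and UBE2L6, PARP14 and DTX3L joined ISG20 (background 7.80%). On all 4 knockdown arrays 10 of the 27 members lay above both scramble arrays, a pattern held by 12.9% of all tested genes, and 1, PARP12, lay below them (9.03% of all). Both KD1 arrays lay above scramble for 12 members (26.4% of all genes) and below for 4 (27.4%). Both KD2 arrays lay above for 15 (40.0%) and below for 6 (29.8%). The mean of the shRNAs was above scramble, by any amount, for 16 of the 27 (52.1% of all). Both comparisons use the same 2 scramble arrays, so they are not independent of each other.

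The number of arrays limits these calls. Of 34 called differences of members, 10 kept their call whichever 1 array was left out. They were the differences of ISG15, ISG20, DTX3L and SP110 with KD2 and between KD1 and KD2, and those of UBE2L6 and PARP14 between KD1 and KD2. None of the 7 calls in the mean and none of the 5 with KD1 held through every such omission. With any array omitted limma called 0 members higher with KD1, while between 6 and 9 had an unadjusted p under 0.05. Without the filter on dim probe sets it called 0 members higher with KD1 (7 at an unadjusted p under 0.05) and 5 with KD2. The shares of all genes called in these fits are not given here, so the counts are not a result about the members alone. A fit without 1 array has 2 residual degrees of freedom in place of 3.

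**Figure D2:**
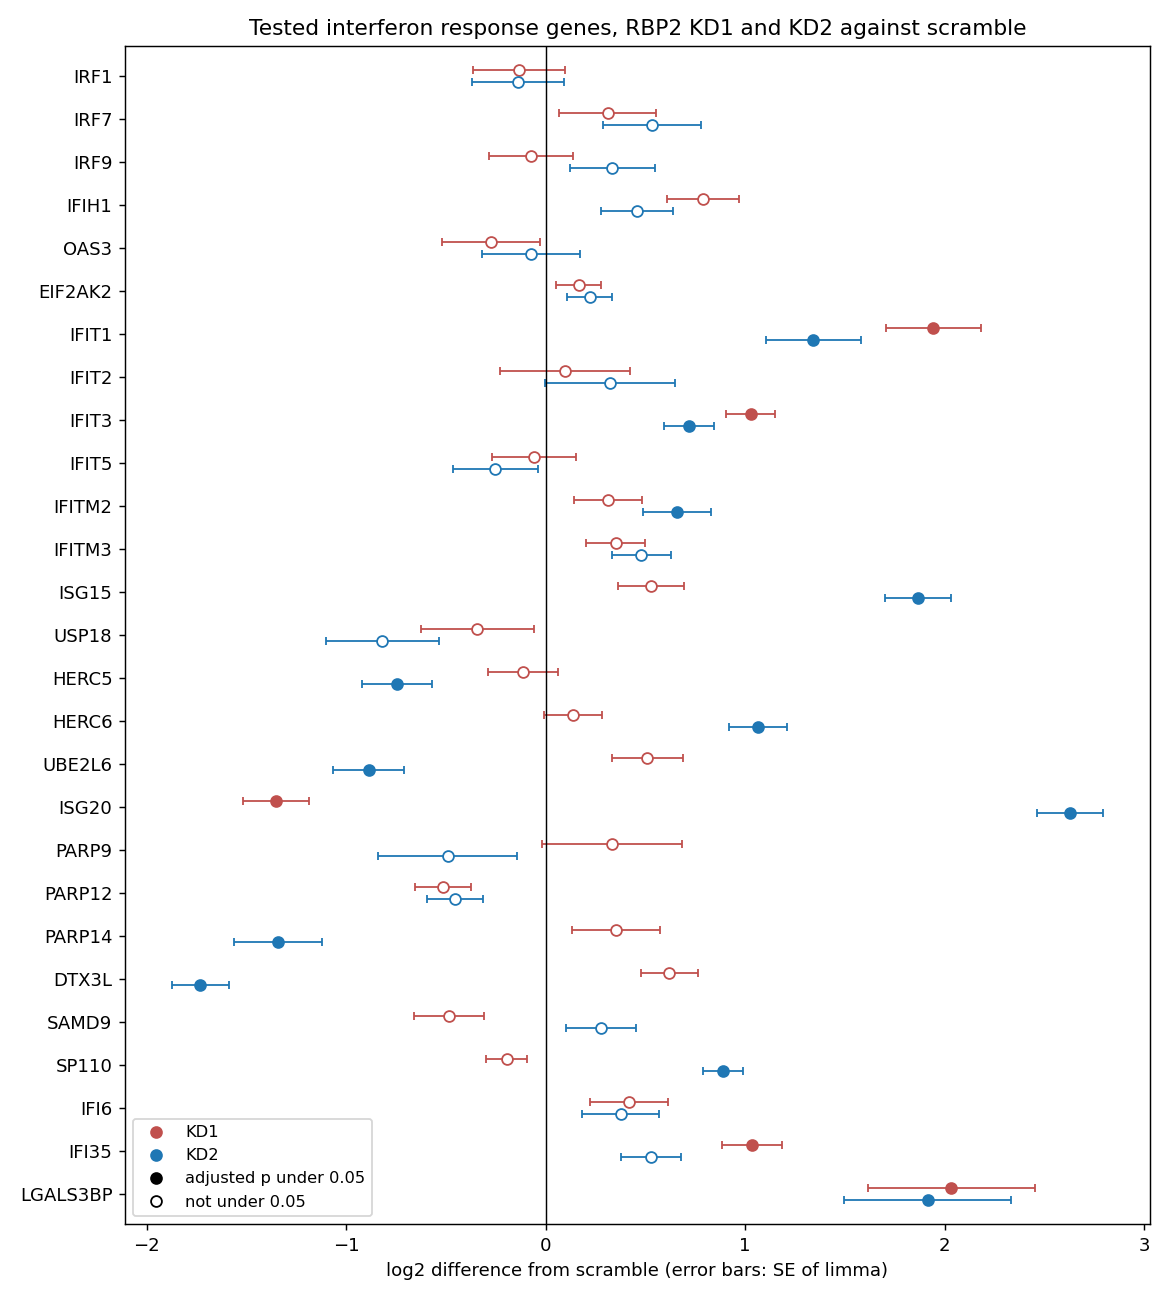
Log2 difference from scramble (horizontal axis) of the 27 tested interferon response genes, with KD1 in red above KD2 in blue for each gene. Points are limma estimates from 2 arrays a group, bars are their SE, and filled points had an adjusted p under 0.05 without the replicate block. ISG20 has filled points on opposite sides of 0, at -1.35 with KD1 and 2.63 with KD2, while both points of IFIT1 and LGALS3BP lie above 1.

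The transcription factors of the pathway among the members showed no call without the block. IRF9, the DNA-binding subunit of the complex that acts on the ISRE, read 6.97 and 7.28 in KD1 and 7.31 and 7.75 in KD2, against 7.07 and 7.32 in scramble. The KD2 arrays overlapped scramble, yet with the block IRF9 was called higher with KD2 (log2 difference 0.33, adjusted p = 0.041 with the block and 0.28 without), and KD1 minus KD2 was -0.41 (0.021 with the block and 0.18 without). IRF1, a direct activator of many of these genes, and IRF7, which amplifies the response, had log2 differences of -0.13 and 0.31 with KD1 and of -0.14 and 0.53 with KD2, and none passed with or without the block.

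Of the RNA sensors, IFIH1 (MDA5, a helicase that detects long double-stranded RNA) read 8.98 and 9.29 in KD1 and 8.85 and 8.77 in KD2, against 8.16 and 8.54 in scramble. All 4 knockdown arrays lay above both scramble arrays, but the differences of 0.79 ± 0.18 with KD1 (SE, limma adjusted p = 0.056) and 0.46 ± 0.18 with KD2 (adjusted p = 0.11) did not pass. With the block both passed (adjusted p = 0.021 and 0.048). EIF2AK2, the kinase PKR that halts translation when it binds double-stranded RNA, also lay above scramble on all 4 arrays, by 0.17 and 0.22, and OAS3 had -0.27 and -0.08 with KD1 and KD2. Neither passed.

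IFIT proteins bind the 5′ end of foreign RNA. Of the 4 family members, 2 were called higher with both shRNAs, where 1.65% of all tested genes were. IFIT1 read 7.91 and 8.11 in KD1 and 7.34 and 7.47 in KD2, against 5.74 and 6.39 in scramble. The groups did not overlap, although the scramble arrays were themselves 0.65 apart. IFIT1 was 3.85-fold higher with KD1 (log2 difference 1.94 ± 0.24, adjusted p = 0.015) and 2.53-fold higher with KD2 (1.34 ± 0.24, adjusted p = 0.015). IFIT3, which binds IFIT1 and stabilises it, read 8.37 and 8.57 in KD1 and 8.20 and 8.13 in KD2, against 7.39 and 7.50 in scramble. Again all knockdown arrays lay above scramble, by 1.03 ± 0.12 with KD1 (adjusted p = 0.015) and by 0.72 ± 0.12 with KD2 (adjusted p = 0.014). Its dimmer probe set, mean 3.71, had smaller differences of 0.45 and 0.29.

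The difference between KD1 and KD2 did not pass for IFIT1 (0.60, 95% interval -0.01 to 1.21, adjusted p = 0.10) or IFIT3 (0.31, interval -0.01 to 0.62, adjusted p = 0.10). With the block it passed for IFIT1 (adjusted p = 0.028). IFIT2 and IFIT5 did not pass. IFIT2 had 0.09 with KD1 and 0.32 with KD2, and its scramble arrays read 7.08 and 7.98. IFIT5 had -0.06 and -0.25. With KD1 the IFIT1 call was lost whichever array was left out (adjusted p between 0.064 and 0.086), and the IFIT3 call likewise (between 0.058 and 0.097). With KD2 IFIT1 lost its call without KD2 replicate 1 (adjusted p = 0.091) or KD2 replicate 2 (0.095). IFIT3 lost it without KD2 replicate 1 (0.087) or 2 (0.068) or scramble replicate 1 (0.075) or 2 (0.056).

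IFITM proteins sit in membranes and hinder the fusion of viruses. Of the 2 tested members, 1 was called higher with KD2, where 16.7% of all tested genes were. IFITM2 read 10.77 and 11.11 in KD1 and 11.22 and 11.35 in KD2, against 10.50 and 10.75 in scramble. It rose with KD2 by 0.66 ± 0.17 (adjusted p = 0.041), and with KD1 it had 0.31 (adjusted p = 0.30). KD1 minus KD2 was -0.35 (adjusted p = 0.17, and 0.034 with the block). The KD2 call was lost without KD2 replicate 1 (adjusted p = 0.14) or 2 (0.18) or scramble replicate 1 (0.17) or 2 (0.083). IFITM3 read 11.92 and 12.17 in KD1 and 12.14 and 12.21 in KD2, against 11.58 and 11.82 in scramble. With KD2 it had 0.48, which did not pass in the main model (adjusted p = 0.063). It passed with the block (adjusted p = 0.015) and, without the block, with a variance trend in limma (adjusted p = 0.045). IFITM1, IFITM2 and IFITM3 are near-identical neighbours, and the probe sets of IFITM2 and IFITM3 carry the suffix for probes shared with other transcripts, so the share of each gene in these values is uncertain.

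The ISG15 system, a small modifier with its conjugating and removing enzymes, split with KD2. ISG15 itself read 10.38 and 10.73 in KD1 and 11.77 and 12.02 in KD2, against 10.01 and 10.04 in scramble. All knockdown arrays were above scramble and the KD2 arrays were the highest. ISG15 was 3.65-fold higher with KD2 (1.87 ± 0.17, adjusted p = 0.0039), and with KD1 it had 0.53 ± 0.17, which did not pass (adjusted p = 0.11, and 0.031 with the block). KD1 lay below KD2 by 1.34 (SE 0.17, adjusted p = 0.0042).

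UBE2L6, the enzyme that carries ISG15 to its ligases, moved the other way in KD2. It read 8.34 and 8.51 in KD1 and 6.82 and 7.23 in KD2, against 7.83 and 8.0 in scramble. The 3 groups did not overlap: KD2 was lowest and KD1 highest. UBE2L6 fell by 0.89 on the log2 scale with KD2 (SE 0.18, adjusted p = 0.021). With KD1 it had 0.51, which passed with the block only (adjusted p = 0.14 without and 0.029 with), and KD1 minus KD2 was 1.40 ± 0.18 (adjusted p = 0.0044). The KD2 call was lost without KD2 replicate 1 (adjusted p = 0.088) or scramble replicate 1 (0.076) or 2 (0.098).

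HERC5, the main human ligase for ISG15, and its relative HERC6 also took opposite directions in KD2. HERC5 read 8.77 and 8.33 in KD1 and 7.87 and 7.97 in KD2, against 8.73 and 8.60 in scramble, so only KD2 lay clear of scramble. HERC6 read 6.38 and 6.36 in KD1 and 7.30 and 7.30 in KD2, against 6.06 and 6.40 in scramble. HERC5 fell by 0.74 with KD2 (SE 0.18, adjusted p = 0.032), while HERC6 rose by 1.07 ± 0.15 (adjusted p = 0.0085). Neither passed with KD1 (-0.11 and 0.14), and KD1 minus KD2 was 0.63 for HERC5 (adjusted p = 0.040) and -0.93 for HERC6 (adjusted p = 0.0076). USP18, which removes ISG15 and damps the receptor, read 5.09 and 4.52 in KD1 and 4.06 and 4.59 in KD2, against 5.30 and 4.98 in scramble, and it did not pass (-0.34 and -0.82).

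The HERC calls did not hold through every omission of an array. Such a fit has 2 residual degrees of freedom in place of 3. The HERC6 difference with KD2 stayed at 1.07 without KD2 replicate 1 or 2. HERC5 with KD2 lost its call without KD2 replicate 1 (adjusted p = 0.16) or 2 (0.12) or scramble replicate 1 (0.14) or 2 (0.098). Its difference between KD1 and KD2 was lost on leaving out any array other than KD1 replicate 2 (adjusted p up to 0.18). HERC6 lost its KD2 call without KD2 replicate 1 (0.068) or 2 (0.059), and its difference between the shRNAs without the same arrays (0.057 and 0.052).

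ISG20, a nuclease that degrades single-stranded RNA, had the largest difference between the shRNAs of the 27 members. It read 3.46 and 3.86 in KD1 and 7.64 and 7.64 in KD2, against 4.94 and 5.09 in scramble. The 3 groups stood far apart, with scramble between the shRNAs. ISG20 fell by 1.35 on the log2 scale with KD1 (SE 0.17, adjusted p = 0.015) and was 6.18-fold higher with KD2 (2.63 ± 0.17, adjusted p = 0.0028), and KD1 minus KD2 was -3.98 (interval -4.40 to -3.55, adjusted p = 0.0011). A second probe set gave -2.76 and 2.51, and it was at the floor on KD1 replicate 1, so its fall is a lower bound. The KD1 call was lost without KD1 replicate 1 (adjusted p = 0.059), KD2 replicate 1 or 2 (0.066 for both), scramble replicate 1 (0.093) or scramble replicate 2 (0.10).

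**Figure D3:**
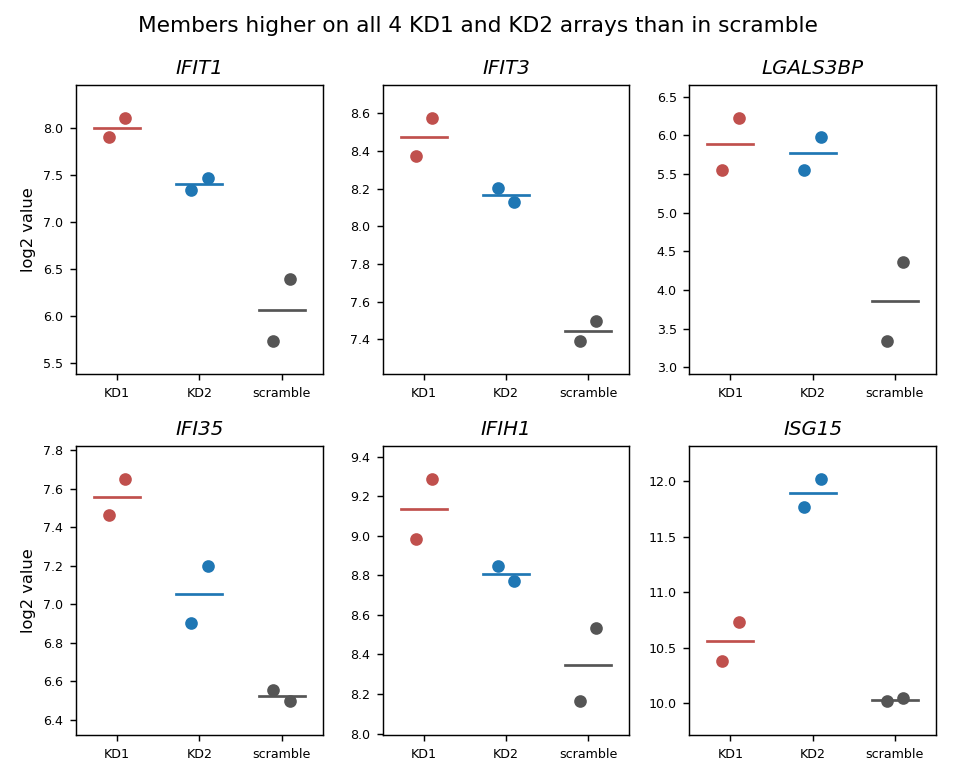
Deposited log2 value (vertical axis, its own range in each panel) of 6 interferon response genes in KD1, KD2 and scramble. Points are the 2 arrays of a group and lines their mean. In each panel all 4 knockdown arrays lie above both scramble arrays, and ISG15 is higher in KD2 (11.77 and 12.02) than in KD1 (10.38 and 10.73).

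Genes of the PARP9, DTX3L and PARP14 neighbourhood on chromosome 3 were lower in KD2 than in KD1. DTX3L is a ubiquitin ligase that acts as a complex with PARP9, and PARP14 is an ADP-ribosyltransferase. DTX3L read 8.55 and 8.76 in KD1 and 6.38 and 6.23 in KD2, against 7.93 and 8.14 in scramble, with no overlap between the 3 groups. It was 3.32-fold lower with KD2 (log2 difference -1.73 ± 0.14, adjusted p = 0.0035). With KD1 it had 0.62 ± 0.14 (adjusted p = 0.057, and 0.029 with the block), and KD1 minus KD2 was 2.35 (interval 1.99 to 2.72, adjusted p = 0.0012). Its call in the mean of both shRNAs, -0.56, averages these opposite values, and was lost with quantile normalization and with a variance trend.

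PARP14 followed the same order of groups. It read 7.53 and 7.89 in KD1 and 5.87 and 6.17 in KD2, against 7.15 and 7.56 in scramble. KD2 lay clear below, while KD1 overlapped scramble. PARP14 fell by 1.34 with KD2 (SE 0.22, adjusted p = 0.013), had 0.35 with KD1 (adjusted p = 0.36, and 0.043 with the block), and KD1 minus KD2 was 1.70 ± 0.22 (adjusted p = 0.0047). The KD2 call was lost without KD2 replicate 1 (adjusted p = 0.090) or 2 (0.060) or scramble replicate 2 (0.060).

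PARP9, which shares the printed ISRE core with DTX3L, read 6.46 and 7.04 in KD1 and 5.65 and 6.20 in KD2, against 6.06 and 6.77 in scramble. The KD1 arrays lay above the KD2 arrays, and scramble overlapped each shRNA. Against scramble it passed only with the block, as lower with KD2 (-0.49, adjusted p = 0.013, against 0.33 without the block). KD1 minus KD2 was 0.82 (adjusted p = 0.0024 with the block and 0.12 without). With its probe sets averaged that difference was 0.63 and was called without the block (limma adjusted p = 0.033). PARP12, an ADP-ribosyltransferase encoded elsewhere, read 7.84 and 7.56 in KD1 and 7.70 and 7.83 in KD2, against 8.26 and 8.17 in scramble. It was the 1 member below scramble on all 4 knockdown arrays, by 0.52 and 0.45, and it passed with the block only (adjusted p = 0.042 and 0.038, against 0.081 and 0.065).

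SP110, a nuclear body protein that binds DNA, and SAMD9, an antiviral inhibitor of translation, were higher in KD2 than in KD1. SP110 read 6.81 and 6.79 in KD1 and 7.89 and 7.89 in KD2, against 7.04 and 6.96 in scramble. It rose with KD2 by 0.89 ± 0.10 (adjusted p = 0.0056) and had -0.20 with KD1 (adjusted p = 0.27). KD1 minus KD2 was -1.09 (adjusted p = 0.0021). Its next brightest probe sets gave 0.98 and 0.81 with KD2, and the dimmest pair 0.08 and 0.17. The probe set used and the next brightest carry the suffix for probes shared with other transcripts. The share of SP110 in these values is therefore uncertain.

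SAMD9 read 6.81 and 7.20 in KD1 and 7.65 and 7.89 in KD2, against 7.44 and 7.54 in scramble, so that scramble lay between the shRNAs. Only its difference between them was called without the block, at -0.76 (SE 0.18, adjusted p = 0.023), and a dimmer probe set put it at -0.22. Against scramble it had -0.49 with KD1, which passed with the block only (adjusted p = 0.033, against 0.14), and 0.28 with KD2. The call between the shRNAs was lost without KD1 replicate 1 (adjusted p = 0.077), KD2 replicate 1 (0.074), KD2 replicate 2 (0.12) or either scramble array (0.050).

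**Figure D4:**
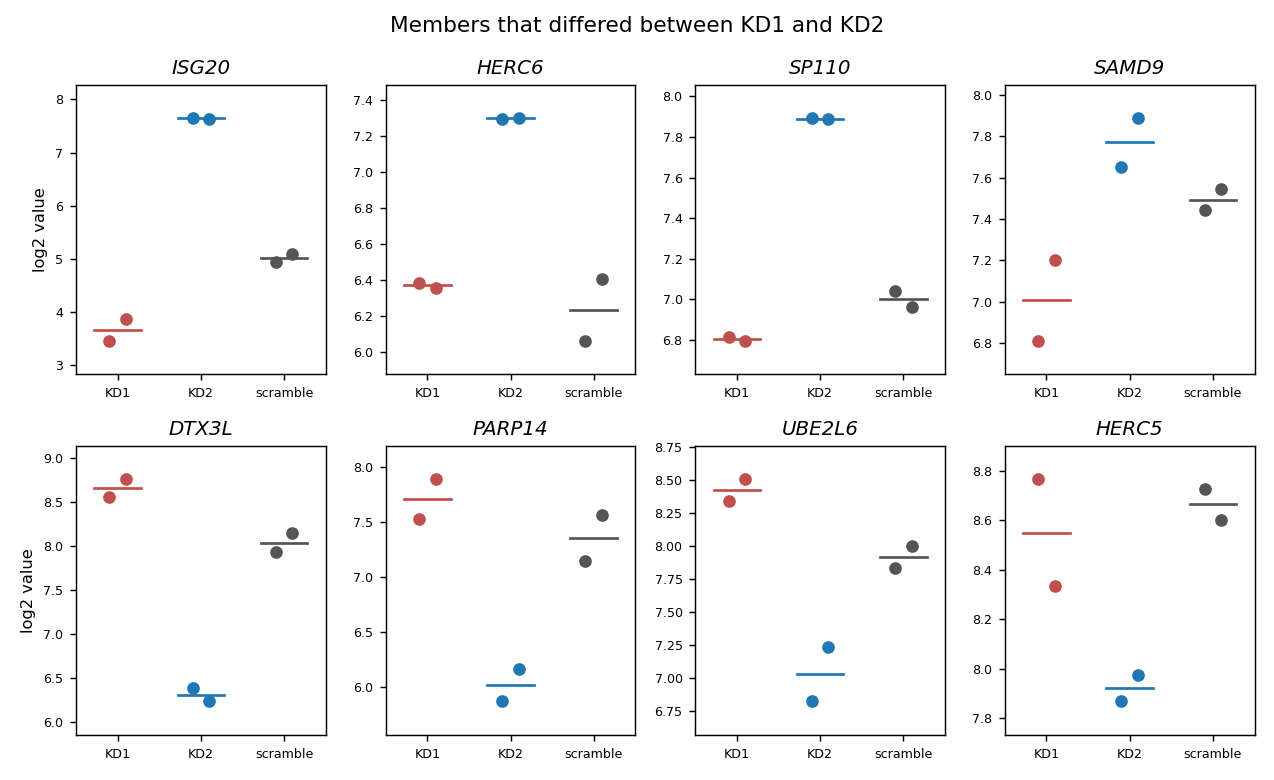
Deposited log2 value (vertical axis, its own range in each panel) of 8 interferon response genes that differed between KD1 and KD2. Points are the 2 arrays of a group and lines their mean. ISG20, HERC6, SP110 and SAMD9 in the upper row are highest in KD2, and DTX3L, PARP14, UBE2L6 and HERC5 in the lower row are lowest there.

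Among the other induced genes, LGALS3BP and IFI35 were higher with knockdown. LGALS3BP, a secreted glycoprotein that binds galectins, read 5.55 and 6.22 in KD1 and 5.55 and 5.99 in KD2, against 3.34 and 4.36 in scramble. All knockdown arrays lay above scramble, which itself spanned 1.02. Its scramble mean was below 4, so the gene passed the filter through its knockdown arrays. It was 4.09-fold higher with KD1 (2.03 ± 0.42, adjusted p = 0.044) and 3.77-fold higher with KD2 (1.92 ± 0.42, adjusted p = 0.026). The shRNAs differed by 0.12 with an interval of -0.95 to 1.19, which leaves room for a difference of either sign.

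IFI35, a leucine zipper protein that binds its relative NMI, read 7.47 and 7.65 in KD1 and 6.90 and 7.20 in KD2, against 6.55 and 6.49 in scramble. The order KD1, KD2, scramble held without overlap. IFI35 rose with KD1 by 1.03 ± 0.15 (adjusted p = 0.021) and had 0.53 with KD2 (adjusted p = 0.050, and 0.022 with the block), and KD1 minus KD2 was 0.51 (adjusted p = 0.046). IFI6, a small endoplasmic reticulum protein, lay above scramble on all 4 arrays, by 0.42 and 0.38, and did not pass.

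These calls did not hold with fewer arrays. LGALS3BP lost its KD1 call whichever array was left out (adjusted p between 0.093 and 0.17), and its KD2 call without KD2 replicate 1 (0.11), KD2 replicate 2 (0.14) or scramble replicate 1 (0.090). Without scramble replicate 1 its log2 differences were 1.52 and 1.40. IFI35 lost its KD1 call and its difference between the shRNAs whichever array was left out, with adjusted p between 0.057 and 0.12 for KD1 and between 0.057 and 0.17 for the difference.

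Arrays with the same replicate number also stood on the same side for many members. Replicate 2 lay above replicate 1 in all 3 groups for 13 of the 27 members, and replicate 1 above replicate 2 for 2, OAS3 and SP110. Over all tested genes these shares were 29.0% and 26.5%. The 13 included IFIT1, IFIT2, ISG15, LGALS3BP, PARP9 and PARP14.

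Genes upstream of the members and beside them in the pathway were taken from lists made by name. Of 20 interferon genes, 18 had a probe set, and none was tested: 15 stood at the floor on all 6 arrays, IFNB1 and IFNL2 on 5 with no value above 2.25, and IFNE ranged from 2.90 to 3.55. Of the 18, IFNE was the 1 that stood above the floor on every array.

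Of 8 tested receptor and kinase genes, 1 was called higher and 1 lower with KD1 (background 3.62% and 7.90%), and 1 was called higher with KD2 (16.7%). IFNAR1, a chain of the type I interferon receptor, read 5.59 and 5.45 in KD1 and 7.69 and 7.80 in KD2, against 7.61 and 7.70 in scramble. Both KD1 arrays lay far below, and KD2 lay beside scramble. IFNAR1 was 4.40-fold lower with KD1 (log2 difference -2.14 ± 0.12, adjusted p = 0.0048) and had 0.08 with KD2 (adjusted p = 0.61), and KD1 minus KD2 was -2.22 (adjusted p = 0.0011). Of its 3 other probe sets, the brightest gave -2.17 with KD1 and 0.05 with KD2. The next gave -1.06 and 0.20, with KD1 replicate 1 at 4.93 beside 4.98 on scramble replicate 2, and the dimmest gave -0.35 and -0.33. IFNGR1, a chain of the gamma interferon receptor, rose by 0.62 with KD1 (adjusted p = 0.047), and IL10RB, a chain shared with the lambda interferon receptor, rose by 0.49 with KD2 (adjusted p = 0.038). IFNAR2, JAK1 and JAK2 did not pass against scramble, and the kinase TYK2 passed with KD2 under the block only (-0.44, adjusted p = 0.035, against 0.054).

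Of 8 tested inhibitors of the pathway, 2 were higher and 1 lower in KD1 minus KD2, where 17.8% and 23.3% of all tested genes were called. SOCS1, which binds and inhibits the JAK kinases, read 3.87 and 3.77 in KD1 and 6.85 and 7.42 in KD2, against 3.87 and 4.13 in scramble. KD2 alone stood apart, 8.80-fold above scramble (3.14 ± 0.22, adjusted p = 0.0032), and KD1 had -0.18. KD1 minus KD2 was -3.31 (adjusted p = 0.0013). Its 3 other probe sets were between 2.24 and 2.59 on every array and did not show this rise, and the gene passed the filter through its KD2 arrays.

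SOCS3, an inhibitor induced through STAT3, read 9.59 and 9.68 in KD1 and 8.34 and 7.95 in KD2, against 9.18 and 8.97 in scramble, so KD1 lay above and KD2 below. It fell by 0.93 with KD2 (adjusted p = 0.016) and had 0.56 with KD1 (adjusted p = 0.11, and 0.044 with the block). A dimmer SOCS3 probe set, with a mean of 6.13, did not show this, at 0.13 with KD1 and -0.01 with KD2. PIAS1, a SUMO ligase that damps the pathway, fell by 0.56 with KD2 (adjusted p = 0.030), and its 2 other probe sets had -1.30 and -1.11. KD1 minus KD2 was 1.49 for SOCS3 (adjusted p = 0.0035) and 0.97 for PIAS1 (0.0048). Of the 8 inhibitors, 1 was called higher (SOCS1, which passed the filter through its KD2 arrays) and 2 lower with KD2 (background 16.7% and 14.4%). With KD1 limma called 0 of them, 2 higher with the block, and 3 were higher at an unadjusted p under 0.05.

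Transcription factors outside the members included IRF2, a factor that binds the same DNA element as IRF1 and often represses it. IRF2 read 7.97 and 7.79 in KD1 and 6.47 and 6.48 in KD2, against 7.17 and 7.13 in scramble. It rose with KD1 by 0.73 ± 0.11 (adjusted p = 0.025) and fell by 0.67 with KD2 (SE 0.11, adjusted p = 0.014), and KD1 minus KD2 was 1.40 (adjusted p = 0.0017). STAT3 fell by 1.07 with KD2 (adjusted p = 0.049), had 0.42 with KD1, and differed between them by 1.50 (adjusted p = 0.015). IRF3, which is activated by the sensors, had 0.37 and 0.23 and did not pass.

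**Figure D5:**
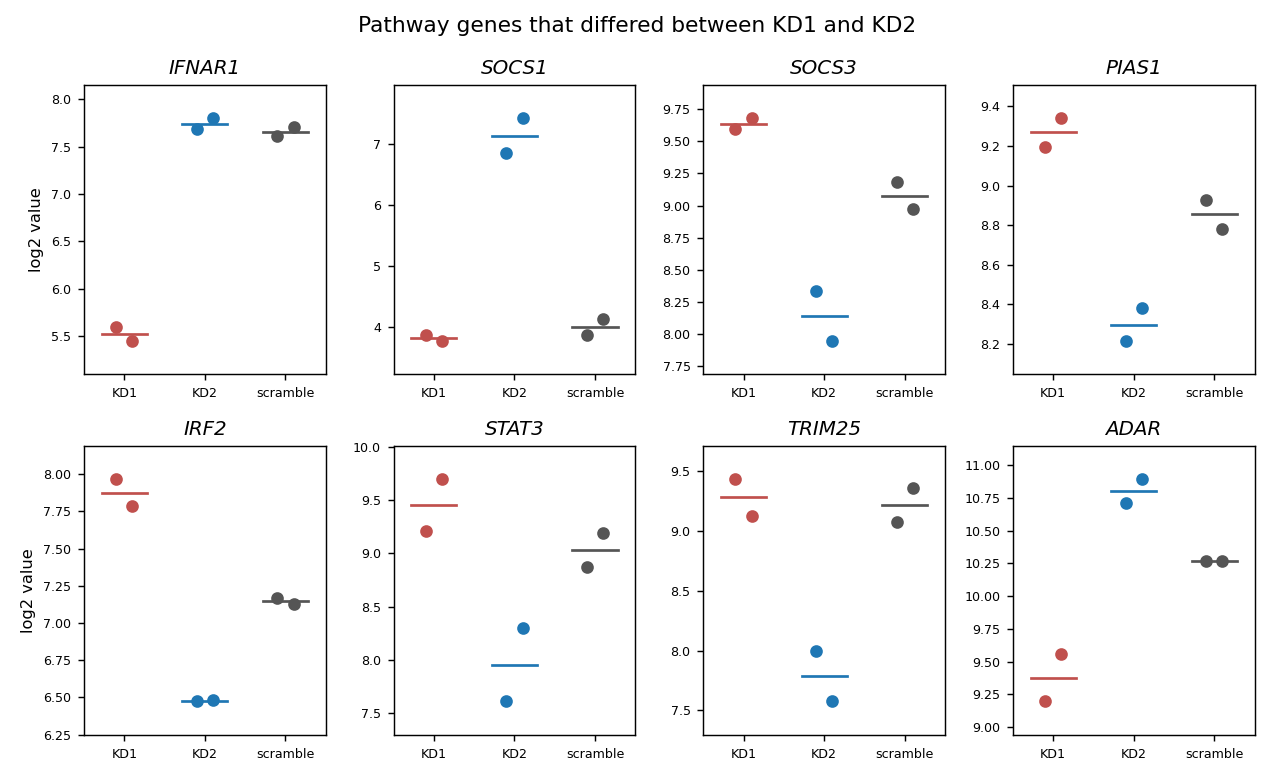
Deposited log2 value (vertical axis, its own range in each panel) of 8 genes of the interferon pathway outside the 45 members. Points are the 2 arrays of a group and lines their mean. IFNAR1 is low in KD1 alone (5.59 and 5.45), SOCS1 is high in KD2 alone (6.85 and 7.42), and IRF2, SOCS3, PIAS1 and STAT3 are highest in KD1 and lowest in KD2.

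Of 15 tested genes of nucleic acid sensing, 2 were called lower with KD1 (background 7.90%), and 2 higher and 2 lower with KD2 (16.7% and 14.4%). MAVS, the mitochondrial adaptor of the RNA sensors, fell by 0.84 with KD1 (adjusted p = 0.042) and had 0.38 with KD2 (adjusted p = 0.15, and 0.046 with the block). Its 3 other probe sets had -1.52, -1.06 and -0.44 with KD1. ADAR, which edits double-stranded RNA, read 9.20 and 9.56 in KD1 and 10.71 and 10.89 in KD2, against 10.27 and 10.27 in scramble, and fell by 0.89 with KD1 (adjusted p = 0.033). With KD2 it had 0.53 (adjusted p = 0.060, and 0.021 with the block). TRIM25, a ubiquitin ligase of the RIG-I pathway, fell by 1.43 with KD2 (adjusted p = 0.0099), and the adaptor TRAF3 rose by 0.64 (adjusted p = 0.020). A dimmer probe set of TRIM25 had -0.35 with KD2, and one of TRAF3 had 1.05 with KD2 and -0.83 with KD1, where the brightest had 0.02. The sensors RIGI and CGAS and the adaptor STING1 did not pass, and STING1 ranged from 4.22 to 5.57 with every replicate 2 above its replicate 1.

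Genes of antigen presentation by MHC class I, many of which respond to interferon, had 17 tested members. With KD1 2 were called higher and 1 lower (background 3.62% and 7.90%), and with KD2 2 were called higher (16.7%). In KD1 minus KD2, 2 were higher and 5 lower, where 17.8% and 23.3% of all tested genes were. TAPBP (tapasin), which loads peptides, read 8.13 and 8.53 in KD1 and 8.70 and 8.68 in KD2, against 7.14 and 7.36 in scramble, and rose by 1.08 and 1.44 (adjusted p = 0.026 and 0.0064). Its dimmer probe sets, with means of 3.74 and 3.33, did not show this, at 0.00 and 0.34 with KD1 and 0.19 and -0.36 with KD2. The trimming peptidase ERAP2 rose by 0.67 with KD1 (adjusted p = 0.040), and the proteasome subunit PSMB8 fell by 0.76 (adjusted p = 0.031). HLA-F did not pass against scramble but differed between the shRNAs by -0.55 (adjusted p = 0.019). B2M, the invariant light chain, had 0.07 and -0.10 and did not pass. Class I heavy chain genes are close paralogs, so a value is uncertain for any 1 of them.

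Typical targets of gamma interferon were mostly too dim to test. Of 16 genes 3 were tested, and 6 stood at the floor on all arrays, among them CXCL9, CXCL10, CXCL11 and IDO1. Of all 19775 genes, 10526 were tested and 5194 stood at the floor on all arrays. WARS1, the tryptophanyl-tRNA synthetase, fell by 0.94 with KD1 (adjusted p = 0.025) and had -0.01 with KD2. It was the 1 of the 3 called lower with KD1, where 7.90% of all tested genes were. GBP3, a guanylate-binding protein, read 7.01 and 6.20 in KD1 and 8.91 and 7.47 in KD2, against 6.50 and 6.57 in scramble, and passed with KD2 under the block only (1.65, adjusted p = 0.020, against 0.069). ICAM1 did not pass.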

How the data were processed

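Expression was measured on 6 arrays of H1299 cells, 2 for each of 3 groups, from cRNA made of 250 ng of total RNA. The deposited log2 values come from GCRMA, which the submitters' processing notes name without a version; the log base was read from the range of the values. This method subtracts a background modelled on probe sequence, normalizes across arrays and sets dim probe sets to a floor, which hides changes below it and can widen differences just above it. Values were taken as deposited, and 0 pairs of arrays were identical.

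Of 54675 probe sets, 41091 carried 1 gene symbol in the platform annotation, 1801 several and 11721 none; 62 were controls. Only those with 1 symbol were named. Gene identifiers matched RefSeq for 41037, and 0 symbols changed. Each gene was represented by its brightest probe set over 6 arrays and tested at a mean log2 of at least 4, which left 10526 of 19775 genes. Limma version 3.58.1 in R version 4.3.3 (lmFit and eBayes, two-sided) fitted all 6 arrays in 1 model with 3 residual and 2.09 prior degrees of freedom; p-values were adjusted over all tested genes by Benjamini-Hochberg. Precision is limited by the number of arrays, with a median SE of 0.17 for 1 shRNA against scramble. The fit was tested on simulated data.

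Replicate numbers come from the titles. Across genes, the departures from the group mean of arrays with the same number had correlations of 0.53 (KD1 with KD2), 0.75 (KD1 with scramble) and 0.51 (KD2 with scramble), so the numbers were taken to pair the arrays. The model without the block is the main one, and blocked values stand beside results whose call they change.

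Every tested member called in a comparison, with or without the block, is described array by array; of each other pathway list up to 4 called genes with the smallest adjusted p are named, and further genes were named after their values were seen. The members and lists were chosen with earlier results of these data known. Alternatives tried were the replicate block, no filter or a mean of at least 6, averaging a gene's probe sets, leaving out probe sets ending in _s_at or _x_at, quantile normalization, a variance trend, fitting only the groups compared, and leaving out each array. Limma's test was used throughout, and no set test was made.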

Additional observations from a re-analysis of the deposited data

Results flagged for a closer look

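A test of the difference itself, KD1 minus KD2 in limma's model over all 6 arrays, passed for 10 of the 27 tested interferon response genes, and the following log2 differences were noted for that reason. Negative values mean lower in KD1 than in KD2. They were -3.98 for ISG20, -1.34 for ISG15, -1.09 for SP110, -0.93 for HERC6 and -0.76 for SAMD9. On the positive side they were 2.35 for DTX3L, 1.70 for PARP14, 1.40 for UBE2L6, 0.63 for HERC5 and 0.51 for IFI35. Of all tested genes, 17.8% were called higher and 23.3% lower in the same comparison, so a share of 5 and 5 among 27 members is near the background.

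The named pathway genes for which the same test passed were IFNAR1 at -2.22, SOCS1 at -3.31, ADAR at -1.43, MAVS at -1.23, TRAF3 at -0.62, PSMB8 at -0.85, HLA-F at -0.55 and WARS1 at -0.93. Higher in KD1 than in KD2 were IRF2 at 1.40, STAT3 at 1.50, TRIM25 at 1.50, SOCS3 at 1.49, PIAS1 at 0.97 and ERAP2 at 0.87. These genes were named for the smallest adjusted p, at most 4 a list. In KD1 minus KD2, 0 were higher and 1 lower of 8 tested receptor and kinase genes. Of 6 STAT and IRF factors it was 2 and 0, and of 15 sensing genes 2 and 4. Of 8 inhibitors it was 2 and 1, of 17 antigen presentation genes 2 and 5, and of 3 gamma interferon targets 0 and 1. Of all tested genes, 17.8% and 23.3% were called. With 2 arrays a group, single arrays were not tested as outliers.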

How the results depend on the processing

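None of the 34 called differences of members changed sign under any alternative; over 454 settings applied to them, 309 kept the call and 145 lost it. With the replicate block the members called were 11 higher and 3 lower in the mean and 9 higher and 3 lower with KD1; blocked values that change a member's call stand in the report, and the block changed no other call of the 19 described members. Without the filter on dim probe sets (44 members tested) they were 1 higher and 0 lower in the mean (12 and 2 at an unadjusted p under 0.05), 0 and 0 with KD1 (7 and 3), 5 and 1 with KD2, and 3 higher in KD1 minus KD2, and the members' median difference was 0.0 with KD1 and with KD2, since 12 members at the floor enter it. Limma called 0 members lower in the mean after quantile normalization and with a variance trend (3 each at an unadjusted p under 0.05). Fitting only the groups compared gave 0 higher and 0 lower with KD1 (9 and 2 unadjusted), and a mean of at least 6 gave 0 lower with KD1 (2 unadjusted), a level that leaves ISG20 out. Without probe sets ending in _s_at or _x_at, 18 members were tested, of which 5 were higher with KD2 and 3 lower in KD1 minus KD2. Except for the block, the shares of all genes called under these alternatives are not given here. A change in the members' counts therefore cannot be set against a background.

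With each array left out in turn, the members called ranged from 0 to 2 higher and were 0 lower in the mean, 0 higher and from 0 to 1 lower with KD1, from 3 to 8 higher and from 1 to 4 lower with KD2, and from 3 to 4 higher and from 3 to 5 lower in KD1 minus KD2. The shares of all genes called with an array left out are not given here either, so these counts are not a result about the members alone. The members' median difference with KD1 ranged from 0.029 to 0.44. Uncalled differences that changed sign ranged from -0.23 to 0.084 for IRF9, -0.33 to 0.10 for HERC5, -0.032 to 0.31 for HERC6 and -0.025 to 0.69 for PARP9 with KD1, from -0.44 to 0.28 for PARP9 in the mean (0.0027 when probe sets were averaged), and from -0.20 to 0.077 for PARP12 and from -0.22 to 0.45 for LGALS3BP in KD1 minus KD2. The causes were not tested. Every group has 2 arrays, so a difference near the median SE cannot be seen, and genes at the floor carry no information on direction.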
